A study of Flaveria robusta and Flaveria sonorensis and Flaveria ramosissima with 24 samples.

Results

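A group of 60 genes was examined that were expressed in leaves of 3 Flaveria species and were at or near 0 in the fourth, F. trinervia. They were chosen by measured values out of the 29562 genes of the table. The rule asked for a mean of at least 10 TPM (a gene's share of the transcripts in a library, corrected for transcript length) in the control libraries of F. robusta, F. sonorensis and F. ramosissima. It also asked for a mean below 0.5 TPM over the 6 libraries of F. trinervia, and for a change of less than 1 on the log2 scale between low CO2 and control in F. robusta. No cap on the number was reached, since only 60 genes met the rule, which is 0.203% of the table. All 60 passed the filter on low values in F. sonorensis and F. ramosissima and were tested there.

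Flaveria is a genus of the daisy family used to study how photosynthesis changed in evolution. The labels class F. robusta as C3 and F. trinervia as C4, and place F. sonorensis with F. ramosissima as C3-C4. Each species had 3 control libraries and 3 libraries from plants kept for 2 weeks at low CO2, which makes 8 groups and 24 libraries of newly expanded mature leaves. The labels give the CO2 setting as 100 for low CO2 and 380 for control, with a light flux unit, so how these values are to be read is not given. All plants shared a growth chamber regime of 200 µmol m-2 s-1 light, 22 °C, a day of 16 h, a night of 8 h, and 70% humidity. The labels do not say whether replicates are separate plants, so the p-values below measure only the spread between these libraries.

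In C3 plants Rubisco fixes CO2 directly and also reacts with oxygen, and the product of the second reaction is salvaged by photorespiration, which takes up a larger share when CO2 is scarce. C3-C4 intermediates recapture photorespired CO2 by releasing it in the bundle sheath, the cell layer around the veins. C4 plants add a pump that fixes CO2 in the mesophyll and releases it in the bundle sheath, which keeps CO2 high around Rubisco. Closely related plants can also differ in gene content, since genes are lost, duplicated or silenced after species part.

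The files do not pair the gene numbers with gene names or functions, so the labelled tissue could not be checked against marker genes, and the genes are described by level and response. The reference sequence used for each species is unknown. For a gene listed at 0 in F. trinervia, a transcript that is absent, a gene missing from the F. trinervia reference and a copy placed in another row of the table cannot be told apart. The number of reads behind a library is also unknown because TPM keeps no depth, so no counting error or detection limit can be given.

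The totals of the 24 libraries differed by species. The deposited TPM summed to between 857693 and 930239 per library. The sums were lowest in F. sonorensis, at 857693 to 872321, and 900289 or more in the other species. The number of rows above 0 was 17665 to 17850 in the 6 F. trinervia libraries and 17580 to 17879 in the 6 F. robusta libraries. It was lower in F. sonorensis, at 16099 to 16268, and higher in F. ramosissima, at 22753 to 23729. F. trinervia therefore did not stand out by the number of empty rows, and F. sonorensis had more of them.

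The level in F. trinervia, which chose the genes, was examined first and is given as a description. Of the 60 genes, 51 were listed at 0 in all 6 F. trinervia libraries, which is 85%. The other 9 genes gave 40 values above 0, 20 in control and 20 in low CO2 libraries, and the highest single value was 0.78 TPM. These 9 genes split into 6 with a value above 0 in all 6 libraries and 3 with a value in 1 or 2 libraries. The gene with the highest F. trinervia mean had 0.45, 0.72 and 0.29 TPM in the controls and 0.62, 0.40 and 0.22 TPM at low CO2. Its libraries overlapped between the treatments. The second had 0.78, 0.38 and 0.32 TPM in the controls and 0.13, 0.17 and 0.21 TPM at low CO2, so its 3 controls lay above its 3 low CO2 libraries, at levels below 1 TPM where no test was made. Summed over the 60 genes, F. trinervia held 2.16 ± 0.654 TPM (SD, n = 3) in control and 1.84 ± 0.388 TPM (SD, n = 3) at low CO2.

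The same 60 genes held 6645 ± 921 TPM (SD, n = 3) in control F. robusta, 5361 ± 128 in F. sonorensis and 4605 ± 335 in F. ramosissima. At low CO2 the sums were 6518 ± 427, 5386 ± 160 and 5070 ± 441 TPM (SD, n = 3) in the same order. Each sum was also divided by the total of the deposited TPM of its library, which was lowest in F. sonorensis. This share of the listed rows was 0.726% ± 0.0999 in control F. robusta, 0.625% ± 0.0147 in F. sonorensis and 0.505% ± 0.0360 in F. ramosissima (SD, n = 3). In each of these 3 species the sums of the control and low CO2 libraries overlapped. None of the 1080 values of the 60 genes in these 18 libraries was below 1 TPM, and the lowest was 1.51 TPM.

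**Figure D1:**
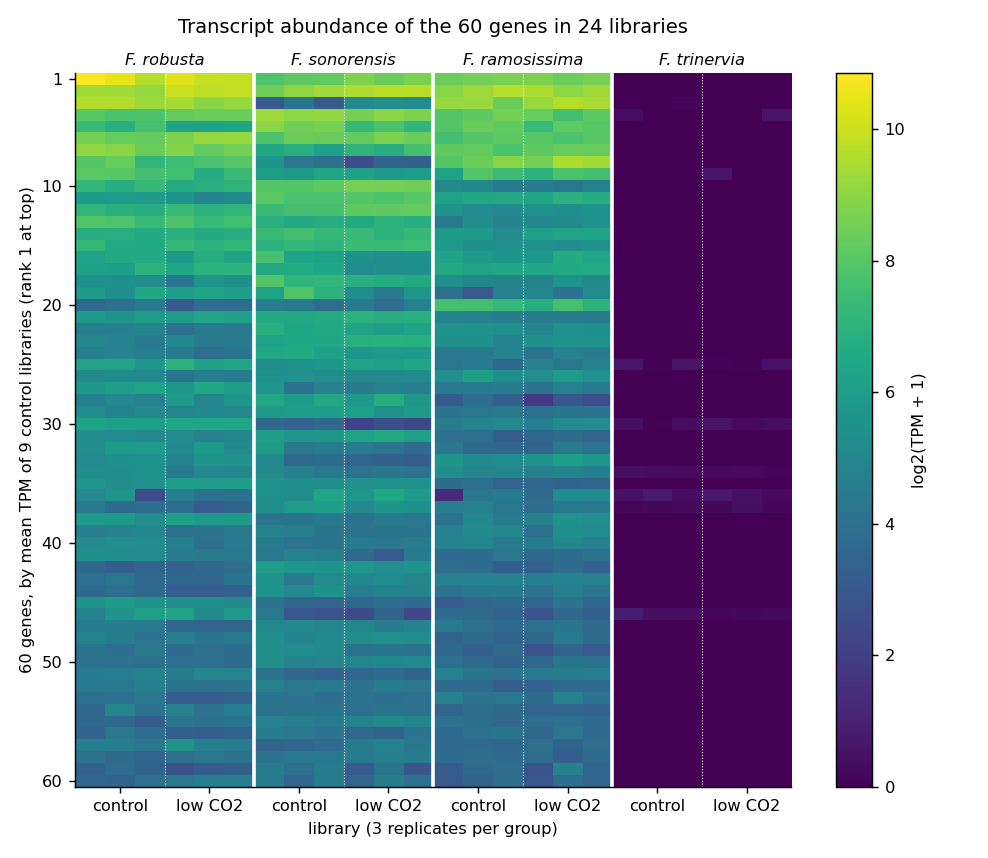
Transcript abundance of the 60 genes (rows, ordered by their mean over the 9 control libraries of F. robusta, F. sonorensis and F. ramosissima) in the 24 libraries (columns, 3 replicates per group), as log2(TPM + 1) in colour. The 18 libraries of the first 3 species are at 1.51 TPM or more throughout, and the F. trinervia columns are at or near 0, with 40 of 360 values above 0.

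How sharply these genes were set apart was read from all 3211 genes with a control mean of at least 10 TPM in the 3 other species. Of these, 2930 genes (91.2%) also had a mean of 10 TPM or more in F. trinervia, 143 had 5 to 10 TPM and 54 had 1 to 5 TPM. Only 8 lay between 0.5 and 1 TPM and 10 between 0.1 and 0.5 TPM, whereas 63 (1.96%) were listed at 0 in all 6 libraries. In total 76 genes (2.37%) were below 0.5 TPM, and the F. robusta limit took 16 of them away. Those 16 changed in F. robusta by between -4.93 and 1.89 on the log2(TPM + 1) scale, 13 of them downward. Falls also prevailed among all 14194 genes with a mean of at least 1 TPM there. Of these, 2504 were at least 2-fold lower and 597 at least 2-fold higher. The F. robusta changes are of TPM as deposited, and other scalings were not tried there.

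The members nearest to the limits were as follows. The highest F. trinervia means inside the limit were 0.45, 0.332 and 0.28 TPM, and the next genes outside had 0.603, 0.72 and 0.725 TPM. The lowest of the 3 control means was 10.2, 10.2 and 10.3 TPM for the last genes inside and 9.64, 9.5 and 9.29 TPM for the first genes outside. The largest F. robusta changes inside were -0.94, -0.92 and 0.88, and the smallest outside were -1.03, -1.04 and -1.06 (log2). The number of genes that met the rule was between 58 and 63 when each of the 24 libraries was left out in turn.

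**Figure D2:**
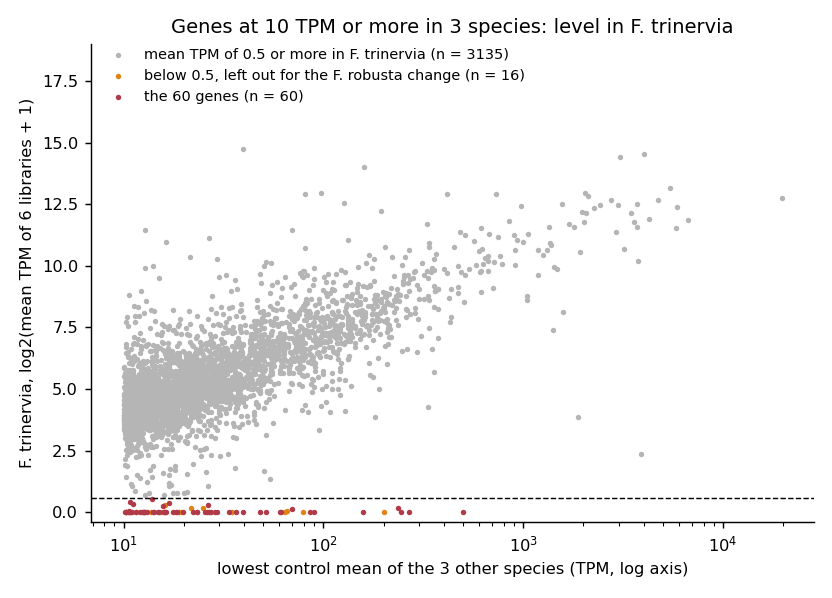
Level in F. trinervia, as log2 of the mean TPM of 6 libraries plus 1, against the lowest control mean of the 3 other species (TPM, log axis), for the 3211 genes at 10 TPM or more in those species. The dashed line marks a mean of 0.5 TPM, and the 60 genes and the 16 genes left out for their F. robusta change lie below it, while 2930 genes are at 10 TPM or more.

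To give the F. trinervia count something to be read against, the rule was turned to each species in its place, without the limit on F. robusta. In F. robusta, 86 of the 3251 genes with at least 10 TPM in the other 3 species (2.65%) were below 0.5 TPM. In F. sonorensis it was 217 of 3215 genes (6.75%), and in F. ramosissima 51 of 4152 (1.23%). The 76 of 3211 genes in F. trinervia (2.37%) were thus fewer than in F. sonorensis and F. robusta and more than in F. ramosissima. The genes listed at 0 in all 6 libraries kept this order, with 214 in F. sonorensis, 77 in F. robusta, 63 in F. trinervia and 31 in F. ramosissima. Rows at 0 in all 6 libraries over the whole table had the same order, with 12904 in F. sonorensis, 10838 in F. robusta, 10804 in F. trinervia and 4492 in F. ramosissima. These counts carry any difference in reference between the species and were not tested.

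**Figure D3:**
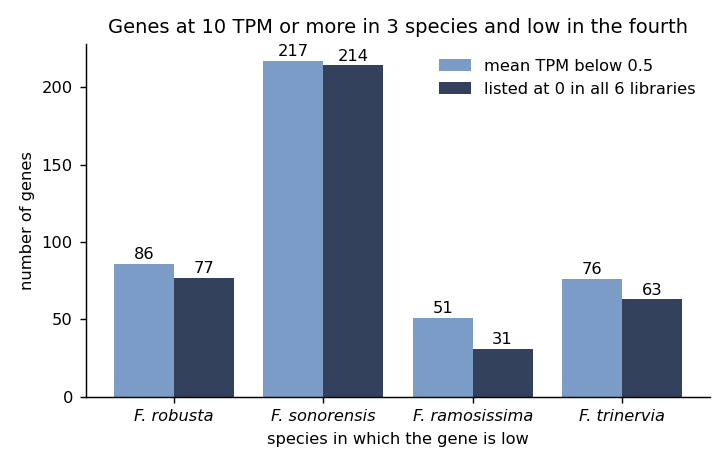
Number of genes with a control mean of 10 TPM or more in 3 species and a mean below 0.5 TPM (light bars) or a listing of 0 in all 6 libraries (dark bars) in the fourth species, named on the horizontal axis. F. trinervia, with 76 and 63 genes, lies below F. robusta and F. sonorensis and above F. ramosissima.

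The 60 genes were mostly of moderate abundance in the 3 species that expressed them. The median control mean was 40.1 TPM in F. robusta, 41.6 TPM in F. sonorensis and 23.5 TPM in F. ramosissima. A comparison group was formed of the 2405 genes that met the same limits in these 3 species but had 0.5 TPM or more in F. trinervia. Its medians were 40.2, 59.2 and 33.1 TPM in the same order. The 60 genes therefore lay lower in F. sonorensis and F. ramosissima by the median, and at a like level in F. robusta. At least 100 TPM was reached by 14 of the 60 in F. robusta, 14 in F. sonorensis and 10 in F. ramosissima.

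A few genes held much of the sum. The 5 most abundant, ranked by the mean of the 9 control libraries, held 46.3% ± 3.46 of the summed TPM of the 60 in control F. robusta, 32.7% ± 1.82 in F. sonorensis and 45.8% ± 0.730 in F. ramosissima (SD, n = 3). The most abundant had 1854, 1423 and 800.5 TPM in the F. robusta controls, 232.5, 285 and 291 TPM in F. sonorensis and 341, 382 and 405 TPM in F. ramosissima. It was listed at 0 in all 6 F. trinervia libraries, and its 3 F. robusta controls lay above all controls of the other species. The second had control means of 624 ± 48.5, 498 ± 138 and 635 ± 153 TPM (SD, n = 3) in F. robusta, F. sonorensis and F. ramosissima, so it was about equally abundant in all 3 within the spread of the replicates. It was also listed at 0 throughout F. trinervia.

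The order of the 3 species differed from gene to gene. The control mean was highest in F. sonorensis for 33 genes, in F. robusta for 21 and in F. ramosissima for 6. It was lowest in F. ramosissima for 29, in F. robusta for 16 and in F. sonorensis for 15. In percent of the 60 genes and of the comparison group, F. robusta was highest for 35% and 19.2%, F. sonorensis for 55% and 60%, and F. ramosissima for 10% and 20.8%. Similarly, F. ramosissima was lowest for 48.3% and 51.6%, F. robusta for 26.7% and 35.8%, and F. sonorensis for 25% and 12.6%. Whether the controls lay wholly apart was counted next. The 3 F. sonorensis controls were above the 6 others in 24 genes and below them in 7, the F. robusta controls above in 12 and below in 6, and the F. ramosissima controls above in 1 and below in 18. As shares, the F. sonorensis controls were above in 40% of the 60 genes and 41.5% of the comparison group, and below in 11.7% and 6.61%. The F. robusta controls were above in 20% and 8.36% and below in 10% and 19.6%, and those of F. ramosissima above in 1.67% and 11.4% and below in 30% and 35.1%. Levels across species carry any difference in reference, so these orders are a description without a test.

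The ratio of the highest to the lowest species had a median of 3.21 over the 60 genes and of 2.56 over the comparison group. It was below 2 for 16 genes (26.7%, against 31.1% of the comparison group) and above 4 for 17 (28.3% against 22.9%). The most even gene had 89.7 ± 34.6 TPM in control F. robusta, 92.7 ± 9.91 TPM in F. sonorensis (SD, n = 3) and 95.0, 75.2 and 87.9 TPM in the F. ramosissima controls, which do not differ beyond their spread. Only 3 genes exceeded 10-fold. Gene29532 and Gene00898, described below, were low in F. sonorensis. The third had 196, 195 and 152 TPM in the F. ramosissima controls, 12.3, 15.3 and 20.4 TPM in F. robusta and 23.6, 21.2 and 13.8 TPM in F. sonorensis. It was the only gene of the 60 with its F. ramosissima controls above all others.

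Control levels were correlated across the 60 genes as a description, without p-values, because genes of a library share its scaling. Between F. robusta and F. ramosissima, Pearson's r of log2(TPM + 1) was 0.800 and Spearman's rho 0.670. For F. sonorensis, r was 0.544 (rho 0.495) against F. robusta and 0.515 (rho 0.487) against F. ramosissima. In the comparison group r was 0.787, 0.799 and 0.733 for the same pairs, and rho was 0.672, 0.733 and 0.638. For both pairs that involve F. sonorensis, r and rho were thus lower among the 60 genes. Gene29532 and Gene00898 are far lower in F. sonorensis than in the other species, and the correlations without them were not computed.

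Expression held in libraries that the rule did not use. At low CO2, 54 of the 60 genes (90%) had a mean of at least 10 TPM in both F. sonorensis and F. ramosissima, against 94.1% of the comparison group. The spread between replicates was near that of all genes tested, and above that of the comparison group in F. robusta and F. ramosissima. For the 60 genes the median SD of log2(TPM + 1) within groups was 0.236 in F. robusta, 0.209 in F. sonorensis and 0.291 in F. ramosissima. It was 0.196, 0.207 and 0.252 in the comparison group and 0.219, 0.246 and 0.285 over all genes with a mean of at least 1 TPM. Single genes were far more variable, up to 0.764 in F. sonorensis and 1.39 in F. ramosissima. The gene with the widest spread in F. ramosissima had 1.51, 18.2 and 22.0 TPM in its controls there and 33.1, 47.96 and 4.65 TPM in those of F. robusta, and it is the gene with the highest F. trinervia mean.

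The response to low CO2 was then compared between species. In F. robusta the rule itself limited the change, so it is described only. Its median over the 60 genes was -0.17 on the log2(TPM + 1) scale, with 22 genes above 0 and 38 below. In the comparison group of 2405 genes, held to the same limit, the median was -0.30, with 733 genes above 0 and 1672 below. Over all 14194 genes with a mean of at least 1 TPM, which have no such limit, it was -0.36. The changes of the 60 genes ran from -0.94 to 0.88.

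In F. sonorensis, limma called 15 of the 60 genes (25%) at an adjusted p below 0.05, whereas 20% of all 14436 genes tested were called. Of the 15 genes, 6 were higher at low CO2 (10%, against 4.54% of all genes) and 9 were lower (15%, against 15.4%). In the comparison group, 22.5% were called, 7.98% higher and 14.5% lower, a share near that of the 60 although this group lay higher in F. sonorensis by its median. The control level in F. sonorensis was part of the rule, and the same controls enter these changes. The median change was -0.12, beside -0.17 over all genes tested.

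The split between directions depended on the scaling. Under median-of-ratios scaling, which sets the median gene near 0, 10 of the 60 genes were higher and 4 lower, where the background was 18.7% of all genes (8.55% higher, 10.2% lower). Quantile normalization also gave 10 higher and 4 lower, where the background was 19.2% of all genes (10.4% higher, 8.74% lower). Of the 15 genes, 10 were called again under the first scaling and 9 under the second. Without low CO2 replicate 1 of F. sonorensis, 6 of the 60 genes (10%) were called, 2 of them higher, beside 7.86% of all genes. Without low CO2 replicate 3, 8 genes (13.3%) were called, again 2 of them higher, beside 9.55% of all genes, so the share called fell over the whole table as well. In all 15 genes the 3 low CO2 libraries lay wholly beyond the 3 controls. Over the 60 genes this was so for 31 genes (51.7%), beside 41.8% of all genes tested and 51.9% of the comparison group.

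The 6 higher genes had changes of 0.55 to 1.83 on the log2(TPM + 1) scale and control means from 10.7 to 270 TPM, and 1 of them was at least 2-fold higher. The 9 lower genes had changes of -1.94 to -0.60 and control means from 11.1 to 421 TPM, and 7 of them were at least 2-fold lower. A rise of 2-fold or more was found in 2.11% of all genes tested and a fall of that size in 9.76%, beside 1.67% and 11.7% of the 60 genes and 1.79% and 7.07% of the comparison group. The remaining 45 genes had changes between -0.99 and 0.73 with a median SE of 0.177 over the 60, and none was past the threshold.

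Gene29532 had the largest rise. In F. sonorensis it had 7.30, 17.5 and 7.18 TPM in the controls and 35.1, 40.6 and 36.7 TPM at low CO2, which is a rise of 1.83 (log2; limma SE 0.307, adjusted p = 0.00707). The low CO2 libraries were close together and all above the highest control. In F. robusta the same gene had 773, 774 and 607 TPM in the controls and 699, 491 and 568 TPM at low CO2, and these groups overlapped. In F. ramosissima it had 588, 576 and 329 TPM in the controls and 571, 801 and 702 TPM at low CO2, also with overlap (log2 fold change 0.51, SE 0.251, limma adjusted p = 0.578). Its control means of 718 TPM in F. robusta and 498 TPM in F. ramosissima do not overlap the 10.7 TPM of F. sonorensis, and the highest is 67.3 times the lowest. Its place among the 60 genes rests on control replicate 2 of F. sonorensis, since the other controls there average 7.24 TPM, below the minimum, and the ratio is then 99.2. In F. trinervia it was listed at 0 except for 0.14 TPM in control replicate 3. The difference between the responses of F. ramosissima and F. sonorensis missed the threshold for this gene (limma adjusted p = 0.132).

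The 3 genes of the table whose log2(TPM + 1) was most like that of Gene29532 over the 18 libraries of the 3 species had Pearson's r of 0.985, 0.978 and 0.978, among 9388 genes with a mean of at least 1 TPM in each of these species. Their control means were likewise low in F. sonorensis, at 12.7, 2.87 and 21.2 TPM, and high in F. robusta, at 1485, 374 and 236 TPM, and in F. ramosissima, at 934, 175 and 157 TPM. None of the 3 was among the 60 genes, because their means in F. trinervia were 273, 539 and 286 TPM. The most similar of the other 59 genes came at rank 20, with r of 0.944. These correlations rest on the level in F. sonorensis and are given as a description.

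Gene14227 rose at a low level. In F. sonorensis it had 9.95, 11.8 and 13.1 TPM in the controls and 21.2, 26.1 and 20.2 TPM at low CO2 (limma estimate 0.90 on the log2 scale, SE 0.170, adjusted p = 0.0108). In F. robusta it had 25, 24.2 and 19 TPM in the controls and 46.9, 25.8 and 22.8 TPM at low CO2, where low CO2 replicate 1 stood above the rest and the groups overlapped. In F. ramosissima it had 12.02, 12.01 and 11.25 TPM in the controls and 15.17, 10.44 and 14.36 TPM at low CO2 (log2 fold change 0.15, limma adjusted p = 0.903). All 6 F. trinervia libraries list it at 0. Both rises, of Gene29532 and Gene14227, were called under all 10 alternatives tried for them.

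Gene18545 had the largest fall. In F. sonorensis it had 78.3, 233 and 129 TPM in the controls and 39.1, 20.2 and 48.9 TPM at low CO2, which is a change of -1.94 (log2; limma SE 0.429, adjusted p = 0.0187). The controls were widely spread, and the groups did not overlap. In F. ramosissima the values leaned the other way, with 15.0, 7.34 and 26.2 TPM in the controls and 29.6, 16.7 and 38.4 TPM at low CO2, but the groups overlapped (limma estimate 0.85 on the log2 scale, SE 0.445, adjusted p = 0.614). In F. robusta the controls had 57.0, 43.1 and 86.2 TPM and the low CO2 libraries 67.0, 78.6 and 67.7 TPM. The difference between the responses of F. ramosissima and F. sonorensis was 2.80 (SE 0.686) and just missed the threshold (limma adjusted p = 0.0505). The fall in F. sonorensis kept its direction but lost its call in limma with median-of-ratios scaling (adjusted p = 0.0513), under quantile normalization (0.0507) and without low CO2 replicate 1 of F. sonorensis (0.0526). The limma adjusted p ranged from 0.0122 to 0.0526 over the 10 alternatives.

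Gene00898 fell from 48.5, 18.9 and 15.0 TPM in the F. sonorensis controls to 4.98, 10.2 and 9.20 TPM at low CO2 (log2 fold change -1.51, SE 0.425, limma adjusted p = 0.0415). Control replicate 1 stood above the other two, and the change was -1.02 without it. This call was the least stable of the 4, as it was kept under only 2 of the 10 alternatives (limma adjusted p from 0.0356 to 0.135). In F. ramosissima the gene was far more abundant, with 257, 338 and 491 TPM in the controls and 388, 732 and 643 TPM at low CO2, and the groups overlapped (0.70 on the log2 scale with SE 0.300, limma adjusted p = 0.499). In F. robusta it had 245, 311 and 142 TPM in the controls and 178, 212 and 260 TPM at low CO2. Gene18545 and Gene00898 were listed at 0 in all F. trinervia libraries.

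**Figure D4:**
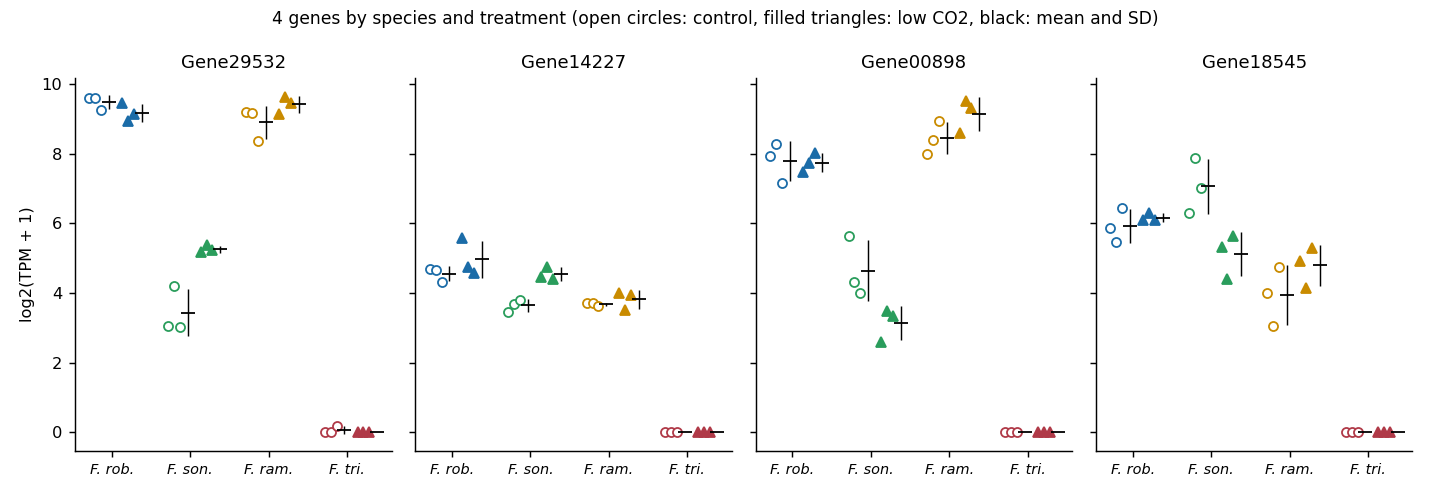
Transcript abundance, as log2(TPM + 1), of Gene29532, Gene14227, Gene00898 and Gene18545 in the 4 species, with each replicate as a point (open circles control, filled triangles low CO2) and the mean and SD of 3 replicates in black. In F. sonorensis the low CO2 points lie above the controls for the first pair of genes and below them for the second pair, and F. trinervia is at or near 0 for all 4.

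Among the most abundant of the 60 genes, the first by rank rose in F. sonorensis from 270 ± 32.3 to 396 ± 46.5 TPM (SD, n = 3), by 0.55 (SE 0.158, limma adjusted p = 0.0438). The second by rank had 347, 531 and 616 TPM in the F. sonorensis controls and 739, 837 and 833 TPM at low CO2. Every low CO2 value was higher than every control, but the change of 0.73 missed the threshold (limma adjusted p = 0.0502). The fifth by rank fell from 421 ± 69.3 to 169 ± 39.8 TPM in F. sonorensis, a change of -1.33 on the log2 scale (SE 0.202, limma adjusted p = 0.00503). In F. robusta its controls had 157, 116 and 201 TPM and its low CO2 libraries 81.1, 76.3 and 82.7 TPM, which also lay below the controls.

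In F. ramosissima, limma called 0 of the 60 genes, and 0.289% of all 15899 genes tested were called, 0.101% higher and 0.189% lower. Here too the control level was part of the rule, and the same controls enter the changes. At an unadjusted p below 0.05 there were 3 of the 60 genes (5%), beside 9.68% of all genes. The low CO2 and control libraries did not overlap in 6 genes (10%), beside 14.1% of all genes. The median change was 0.01, with 31 genes above 0 and 29 below, and the median SE of 0.239 was larger than in F. sonorensis. The smallest adjusted p was 0.327. That gene had 7.88, 14.1 and 8.93 TPM in the controls and 2.49, 6.74 and 5.01 TPM at low CO2, without overlap (log2 fold change -1.01, SE 0.334). Its control mean of 10.3 TPM there was near the minimum of 10 TPM that the rule set. The highest change, 1.39 (SE 0.793), belonged to the gene with the widest spread, which had 12.7, 38.0 and 36.3 TPM at low CO2 and control values that overlapped them.

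Whether the responses of the 2 intermediates differed was tested in one limma model over 12 libraries. The control levels of both species were part of the rule, and the same controls enter the difference. The response of F. ramosissima minus that of F. sonorensis was called for 2 of the 60 genes (3.33%), beside 2.64% of the 10473 genes tested. Both differences were positive, where 2.03% of all genes were called in that direction and 0.602% in the other. The count was 1 without low CO2 replicate 2 or 3 or control replicate 1 or 2 of F. ramosissima, beside 1.59%, 0.457%, 1.73% and 1.28% of all genes called. It was also 1 without low CO2 replicate 1 or 3 of F. sonorensis, beside 0.849% and 1.67% of all genes. It was 4 without low CO2 replicate 1 or control replicate 3 of F. ramosissima, beside 3.13% and 2.79% of all genes, and in the latter case 1 of the 4 was negative. Without control replicate 1, 2 or 3 of F. sonorensis it stayed at 2, of which 1 was also called with all libraries, and without control replicate 2 the other was negative. All genes were then called at 3.16%, 1.08% and 1.95%. At an unadjusted p below 0.05 there were 16 of the 60 genes (26.7%), beside 17.5% of all genes.

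The first of these 2 genes was the one with the most even control levels. In F. sonorensis it had 96.0, 101 and 81.6 TPM in the controls and 36.5, 42.2 and 41.1 TPM at low CO2, which is a change of -1.19 (log2; limma SE 0.146, adjusted p = 0.00256). In F. ramosissima it had 95.0, 75.2 and 87.9 TPM in the controls and 91.1, 96.5 and 100.2 TPM at low CO2 (limma estimate 0.16 on the log2 scale, SE 0.180, adjusted p = 0.866). In F. robusta the controls had 74.0, 65.6 and 129 TPM and the low CO2 libraries 82.7, 119.6 and 127 TPM, with overlap. The difference between F. ramosissima and F. sonorensis was 1.35 (SE 0.217, limma adjusted p = 0.0106).

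The second had 12.2, 9.59 and 11.5 TPM in the F. sonorensis controls and 3.58, 5.32 and 4.12 TPM at low CO2 (limma estimate -1.19 on the log2 scale, SE 0.185, adjusted p = 0.00548). In F. ramosissima it had 23.5, 28.7 and 35.0 TPM in the controls and 24.4, 36.3 and 38.8 TPM at low CO2, which overlapped. In F. robusta it had 76.9, 68.6 and 69.1 TPM in the controls and 84.5, 85.5 and 81.6 TPM at low CO2, with the low CO2 values above those of the controls. The difference was 1.36 (SE 0.304, limma adjusted p = 0.0355). This gene was one of the 6 with a value above 0 in every F. trinervia library, at most 0.47 TPM.

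Across the 60 genes the changes in F. sonorensis and F. ramosissima, which share no library, had Pearson's r of 0.040 and Spearman's rho of 0.151, and 37 genes (61.7%) had the same sign. In the comparison group r was 0.334, rho 0.313 and the share of equal signs 61.3%. Gene18545 and Gene00898 fell most in F. sonorensis (-1.94 and -1.51) and had positive changes in F. ramosissima (0.85 and 0.70). The correlations without these genes were not computed. Of the 9 genes called lower in F. sonorensis, 6 had a positive and 3 a negative change in F. ramosissima, none of them called. Of the 6 called higher, 5 had a positive change there.

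**Figure D5:**
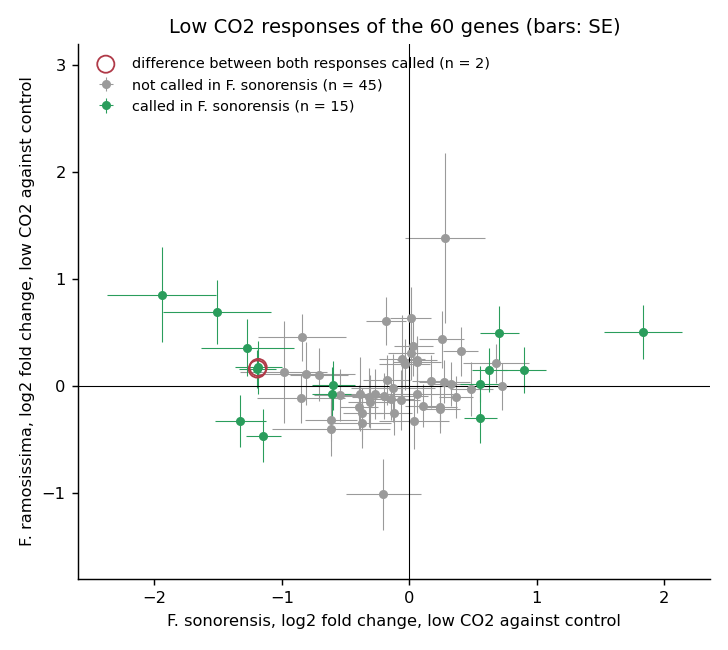
Log2 fold change at low CO2 against control in F. ramosissima (vertical) and F. sonorensis (horizontal) for the 60 genes, on the log2(TPM + 1) scale, with SE bars. The 15 genes called in F. sonorensis are green, none is called in F. ramosissima, and the 2 genes whose responses differ between both species are ringed near -1.19 on the horizontal axis.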

How the data were processed

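Leaf RNA of 4 Flaveria species was sequenced as paired reads of 150 bp. The authors deposited 1 table of TPM, with 1 row per gene and 24 library columns, each matched to its library by the labels. The processing notes name RSEM and edgeR without role or version. Nothing further is known, with the aligner, the reference per species and the rule for joining genes of 4 species not given in the sources used here. A TPM value is relative to the library total, so a rise of abundant transcripts lowers all other values.

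Low CO2 was compared with control on log2(TPM + 1) by limma 3.58.1 in R 4.3.3 (lmFit, eBayes with trend), per species, for all genes with a mean of at least 1 TPM in it. The fold change understates the change of low genes. The difference of responses was fitted with 4 group means over 12 libraries. P-values were Benjamini-Hochberg adjusted over all genes tested, and an adjusted p below 0.05 is called. The fits were also run on simulated data with planted changes, where the spread was drawn independently for each gene and library. Correlated replicates and shifts of scaling were not part of that simulation. Counts and figures were made in Python 3.11.15 with matplotlib 3.10.9.

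The 60 genes, lists and tests were chosen with earlier results of these data known. Gene numbers are printed for the 2 largest called rises and the 2 largest called falls in F. sonorensis without overlap, since F. ramosissima had no called gene. Other genes are given by rank. No library was left out. At most 0.182% of values were identical in a replicate pair, so none was treated as a copy. Alternatives were a pseudocount of 0.1, no filter or a minimum mean of 5 TPM, median-of-ratios and quantile scaling, other prior spreads, a replicate block, leaving out each library, and other limits of the rule.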

Additional observations from a re-analysis of the deposited data

Results flagged for a closer look

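Among the 60 genes, the test of the difference between the low CO2 responses of F. ramosissima and F. sonorensis called 2. That is 3.33% of the 60, beside 2.64% of the 10473 genes tested and 1.75% of the comparison group. The first, the gene with the most even control levels, had a difference of 1.35 (SE 0.217, limma adjusted p = 0.0106), and it was called under all 20 alternatives, where the difference was 1.13 to 1.44 and the limma adjusted p 0.0074 to 0.0487. The second had a difference of 1.36 (SE 0.304, limma adjusted p = 0.0355) and was called under 11 of 20 alternatives, with a limma adjusted p from 0.0161 to 0.111. Its control mean in F. sonorensis was 11.1 TPM, near the minimum of 10 TPM that the rule set. In both, the 3 low CO2 libraries of F. sonorensis lay below its 3 controls, while those of F. ramosissima overlapped.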

How the results depend on the processing

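The count of 15 genes called in F. sonorensis was 11 to 16 under the settings tried with all libraries. Of all genes tested, 14.5% to 24% were called under these settings. With a library left out the count was 6 to 16, beside 7.86% to 21.2% of all genes. The count of 0 in F. ramosissima was 0 under all 14 alternatives, where 0% to 1.30% of all genes were called. At an unadjusted p below 0.05 there were 1 to 7 of the 60 genes, beside 4.91% to 14.4% of all genes. The count of 2 for the difference was 2 or 3 with all libraries, beside 2.01% to 3.40% of all genes. It was 1 to 4 with a library left out, beside 0.457% to 3.16% of all genes. With the replicate number as a block, the counts were 11, 0 and 3, beside 14.5%, 1.30% and 3.26% of all genes. In F. ramosissima the block left 6 of the 60 genes at an unadjusted limma p below 0.05, beside 14.4% of all genes. Same-numbered libraries had correlated deviations of 0.342, 0.470 and 0.0958 in F. ramosissima, each the highest for its library. In F. sonorensis they were 0.00162, -0.215 and -0.0747. The correlations thus differed between the species, and the main fits leave the block out in both. A control minimum of 20 TPM left 25 genes, and the other limits of the rule gave 51 to 90. With each library left out, which was chosen after seeing the data, the rule gave 58 to 63. The median change in F. sonorensis moved from -0.12 to 0.06 under median-of-ratios scaling and 0.13 under quantile normalization. Over all genes tested it moved as well, from -0.17 to -0.005 and 0.07. Which scaling gives the true direction was not tested. Depth is unknown for TPM, so genes at or near 0 in F. trinervia have no detection limit.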
